A study of Mus musculus with 12 samples.

Results

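This report describes 8 genes that move or store zinc and copper, measured in the mouse line DC2.4, which was immortalised from dendritic cells. They are the metallothioneins Mt1 and Mt2, the zinc importers Slc39a4 and Slc39a8, the zinc exporter Slc30a1, the copper importer Slc31a1 and the copper pumps Atp7a and Atp7b. The genes were taken by symbol from the 42687 identifiers of the count table, and all 8 were found and carried enough counts to be tested, as did 13261 genes in all. They were selected on results of these same libraries, and the value known to have been in view is the low Atp7b level after activated vesicles set against PBS. Values of that comparison are therefore given for the 8 genes as a description, with no p-value. Each other comparison of Atp7b shares its ATEV or PBS libraries with that choice, so Atp7b is described throughout without a p-value. Whether other comparisons guided the choice of the remaining genes is not recorded, so the tests given for them are not independent of it.

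Every library came from the same wild-type (WT) line. Cells received extracellular vesicles shed by T cells, or phosphate-buffered saline (PBS) alone. The first group of 3 libraries came from cells given vesicles of activated T cells (ATEV) at 15 µg/mL, which had first been treated with Baseline-ZERO DNase, an enzyme that degrades DNA. The second group received 15 µg/mL of ATEV without that treatment, the third vesicles of T cells that were not activated (NTEV) at 30 µg/mL, and the fourth PBS. The vesicle dose thus differed between NTEV and both ATEV groups. The labels place a DNA content of 5 µg/mL beside the NTEV dose, and whether it covers ATEV as well is not stated. The labels mention 3 repeats of treating and replating, and do not say whether these were rounds on the same cells or separate experiments, so p-values measure the spread between these libraries, which may be technical.

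Metal ions are handled by dedicated proteins because cells need zinc and copper as cofactors and are harmed by an excess. Members of the ZIP family (Slc39a) bring zinc into the cytosol, members of the ZnT family (Slc30a) take it out, and metallothioneins bind zinc and copper through clusters of cysteine residues. Copper enters through Slc31a1 (CTR1) and is pumped into the secretory pathway or out of the cell by the P-type ATPases encoded by Atp7a and Atp7b, the genes mutated in Menkes and Wilson disease in humans. In phagocytes of mouse and human, such transporters are known for withholding metals from microbes and for loading them into phagosomes. Transcription of metallothioneins and of Slc30a1 is known to respond to zinc through the factor encoded by Mtf1, which binds metal response elements.

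The coding sequences of both metallothioneins are shown because they carry the metal ligands and because Mt1 and Mt2 are near relatives whose reads must be told apart. They were read from GENCODE M21 transcripts on chromosome 8 and are printed 5′ to 3′, with the TGC and TGT codons, which encode cysteine, in capitals.
Mt1: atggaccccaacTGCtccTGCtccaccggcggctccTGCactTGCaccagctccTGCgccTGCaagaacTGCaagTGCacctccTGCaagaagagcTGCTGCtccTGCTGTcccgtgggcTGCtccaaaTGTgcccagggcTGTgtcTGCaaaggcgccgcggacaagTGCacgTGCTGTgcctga
Mt2: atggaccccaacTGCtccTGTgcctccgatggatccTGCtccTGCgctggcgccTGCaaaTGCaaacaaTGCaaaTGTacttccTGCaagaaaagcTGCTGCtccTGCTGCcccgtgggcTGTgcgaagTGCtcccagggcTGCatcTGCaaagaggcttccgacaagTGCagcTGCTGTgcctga
Each had 61 codons before the stop codon, of which 20 were cysteine codons, or 32.8%, and all 20 stood at the same codon positions in the pair. The coding sequences matched at 148 of 186 bases (79.6%), and the longest identical stretch was 20 bases. How the read counter treated reads that fit both genes is not given in the sources used here.

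Promoter windows of RefSeq (build GRCm38.p6) are shown for both metallothioneins, the best-known targets of the metal response, and for Atp7b, the gene of the 8 with the widest range between libraries. Each window runs from 250 bases before to 50 bases after an annotated start site and is printed in the direction of transcription. Capitals mark the core of the metal response element, searched on both strands as TGCACNC or TGCGCNC. The windows are at chr8:94178839-94179138 (plus strand) for Mt1, chr8:94172368-94172667 (plus strand) for Mt2 and chr8:22060025-22060324 (minus strand) for Atp7b.
Mt1: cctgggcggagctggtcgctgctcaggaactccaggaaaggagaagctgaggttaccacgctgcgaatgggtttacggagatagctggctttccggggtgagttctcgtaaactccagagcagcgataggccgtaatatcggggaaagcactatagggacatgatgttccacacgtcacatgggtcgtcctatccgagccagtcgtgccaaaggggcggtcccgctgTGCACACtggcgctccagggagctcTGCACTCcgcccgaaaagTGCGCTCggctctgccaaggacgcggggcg
Mt2: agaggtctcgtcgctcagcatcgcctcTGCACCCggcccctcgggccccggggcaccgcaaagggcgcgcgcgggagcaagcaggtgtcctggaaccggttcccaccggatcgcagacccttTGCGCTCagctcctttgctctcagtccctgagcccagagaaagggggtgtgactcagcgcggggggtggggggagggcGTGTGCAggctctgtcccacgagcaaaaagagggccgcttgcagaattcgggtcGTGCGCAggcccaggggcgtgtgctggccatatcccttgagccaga
Atp7b: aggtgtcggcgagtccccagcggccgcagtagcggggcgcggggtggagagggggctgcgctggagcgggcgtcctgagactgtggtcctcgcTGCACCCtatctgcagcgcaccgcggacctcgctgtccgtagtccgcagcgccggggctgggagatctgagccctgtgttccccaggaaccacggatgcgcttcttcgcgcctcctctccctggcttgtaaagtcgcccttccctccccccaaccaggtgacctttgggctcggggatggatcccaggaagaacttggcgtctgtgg
The Mt2 window held 4 cores, the Mt1 window 3 and the Atp7b window 1. Of all 32851 windows of this length, 25.7% held at least 1 core, 1.97% at least 3 and 0.517% at least 4. The Slc30a1 and Atp7a windows held 2 each, as did or exceeded 7.11% of windows. Windows were matched for 7 of the 8 genes, all but Slc39a4. No core was found in the Slc31a1 window, and of the 2 Slc39a8 windows 1 held a single core. A match describes letters in a window and is no sign that a factor binds there.

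**Figure D1:**
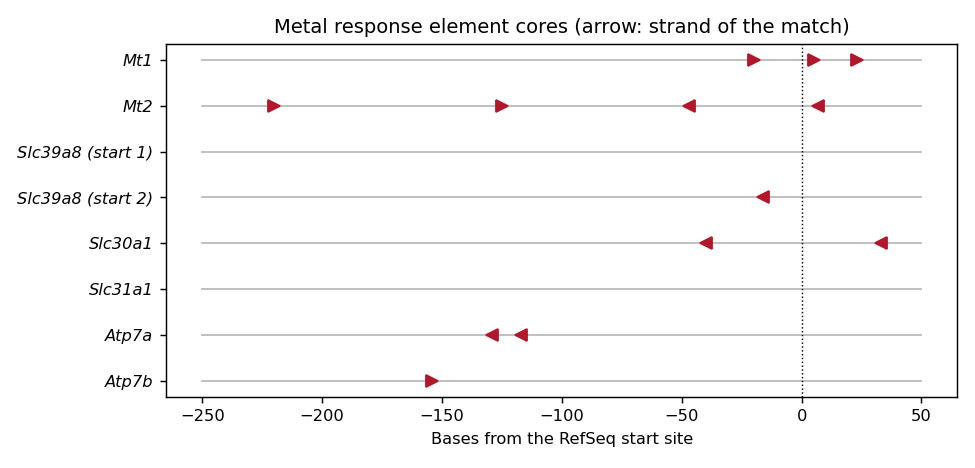
Position of metal response element cores in RefSeq promoter windows of the zinc and copper genes, in bases from the annotated start site (dotted line). Arrows point along the strand of the match; Mt2 has 4, Mt1 3 and Atp7b 1, and Slc39a8 has 2 annotated starts.

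Scaled to exon length, transcript levels of the 8 genes spanned several orders of magnitude. CPM is the usual depth-scaled count, here with TMM-scaled library sizes, and CPM per kb divides them by the length of exon annotated in GENCODE M21. On the CPM per kb scale the metallothioneins were the most abundant of the 8, with Mt2 at 741 ± 115 after DNase-treated ATEV, 626 ± 60.2 after ATEV, 609 ± 115 after NTEV and 699.5 ± 32.3 after PBS (SD, n = 3). Mt1 followed at 320 ± 72.5, 242 ± 49.5, 282 ± 135 and 384 ± 40.9 CPM per kb in the same order of groups. The gap between the pair depends on their annotated exon lengths, 1246 bases for Mt1 and 588 for Mt2. Before division by length, Mt1 averaged 479 CPM after PBS, against 411 for Mt2. Mt2 had the higher mean CPM in the 3 vesicle groups. It stood at 436 against 398 after DNase-treated ATEV, 368 against 302 after ATEV and 358 against 351 after NTEV. The copper importer Slc31a1 came next, at 29.1 to 35.2 CPM per kb over the 4 group means, then Atp7a at 6.50 to 8.65 and Slc30a1 at 4.86 to 5.87. Slc39a4 ranged from 0.571 to 2.88 CPM per kb and Slc39a8 from 0.339 to 0.551. Atp7b was the least abundant in the 3 vesicle groups, while after PBS Slc39a8 was (0.339 ± 0.0517, within the spread of Atp7b). Atp7b stood at 0.222 ± 0.0582 after DNase-treated ATEV, 0.0344 ± 0.0058 after ATEV, 0.0308 ± 0.0209 after NTEV and 0.360 ± 0.126 after PBS.

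**Figure D2:**
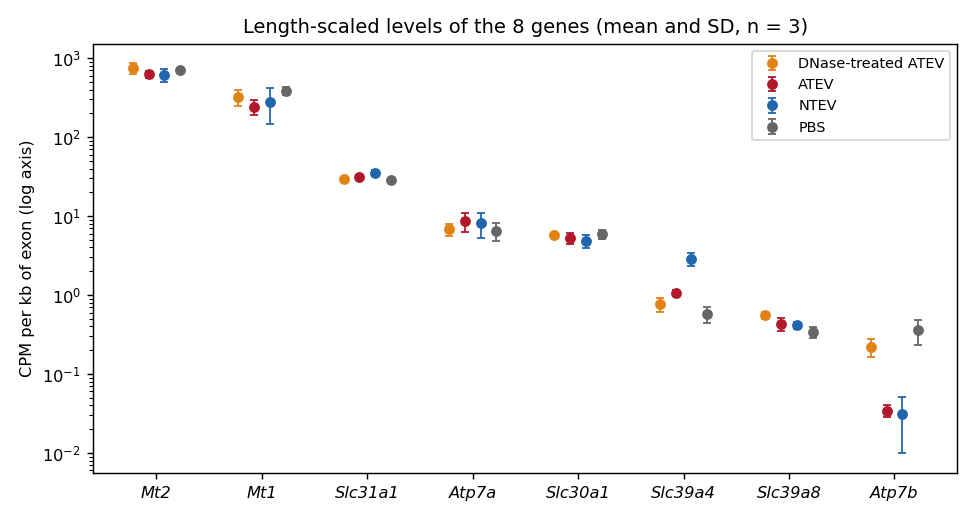
Mean level of each zinc and copper gene per group in CPM per kb of exon on a log axis, with SD bars over 3 libraries. The metallothioneins lie highest in every group, from 242 CPM per kb upward, while Atp7b is at most 0.360 and is lowest after ATEV and NTEV.

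The whole table gives the setting for these genes. Libraries held 19.4 to 30.4 M gene counts. On the first principal component of all tested genes, which held 38.2% of the variance, DNase-treated ATEV replicate 1 (-26.3) and NTEV replicate 1 (-19.5) lay among the PBS libraries (-35.7 to -12.3), whereas the other libraries treated with vesicles lay between 4.83 and 37.3. Of 19 T cell markers, 6 (Cd3e, Cd8a, Il2ra, Ifng, Trbc1 and Trbc2) had 0 counts in all 12 libraries and 4 could be tested. Their summed level was 57.5 to 63.4 CPM after DNase-treated ATEV, 46.4 to 65.4 after ATEV, 37.3 to 56.0 after NTEV and 60.6 to 104 after PBS, most of it from Cd28. Of 17 dendritic cell and macrophage markers, 14 could be tested, but the dendritic cell receptor Flt3 had 6 counts over all libraries and the MHC class II chains H2-Aa and H2-Ab1 had 23 and 34. Their summed level was 4357 to 4658 CPM after DNase-treated ATEV, 6023 to 8906 after ATEV, 5956 to 6861 after NTEV and 4588 to 5188 after PBS, so it moved with the groups. The largest contributors were Lyz2 and Cd68, with means of 2435 and 1036 CPM over the 12 libraries, while Zbtb46 and Batf3 averaged 6.26 and 5.24 CPM. The part of this sum in the results below was not tested. The 8 listed fibroblast markers summed to at most 4.98 CPM in any library.

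**Figure D3:**
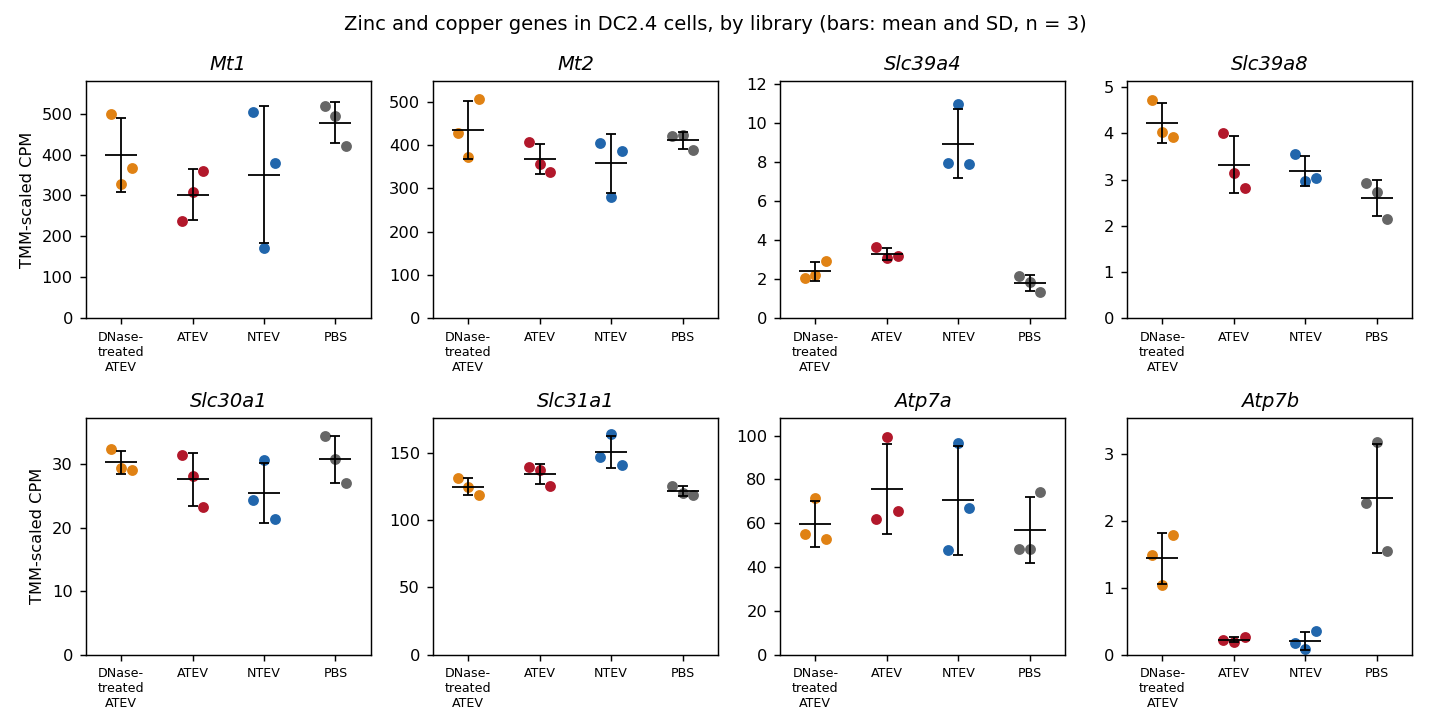
TMM-scaled CPM of each zinc and copper gene in each of the 12 libraries (points), with the mean and SD of each group of 3. Atp7b is low in all ATEV and NTEV libraries, and Slc39a4 is highest in the 3 NTEV libraries.

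Atp7b, the copper pump that is mutated in Wilson disease, showed the widest range of the 8 genes. It had 31, 22 and 43 counts after DNase-treated ATEV, 5, 4 and 5 after ATEV, 5, 2 and 7 after NTEV, and 57, 68 and 36 after PBS. On the CPM scale these were 1.49, 1.04 and 1.79 after DNase-treated ATEV, 0.215, 0.191 and 0.265 after ATEV, 0.173, 0.0801 and 0.348 after NTEV, and 2.28, 3.19 and 1.55 after PBS. Each DNase-treated ATEV and PBS library thus lay above each ATEV and NTEV library, and the ranges of the DNase-treated ATEV and PBS groups overlapped. In bulk RNA, fewer cells with the transcript and less transcript per cell cannot be told apart.

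Exposure of ATEV to DNase before use went with a higher Atp7b level than untreated ATEV. Group means were 1.44 ± 0.379 CPM after DNase-treated ATEV and 0.224 ± 0.0377 CPM after ATEV (SD, n = 3), a fitted log2 fold change of 2.67 ± 0.46 (SE) or 6.37-fold. All 3 DNase-treated ATEV libraries lay above all 3 ATEV libraries. Leaving out 1 library moved the log2 fold change between 2.48 and 2.86, and without DNase-treated ATEV replicate 1 it was 2.64. With 14 counts over the ATEV libraries, Atp7b entered the tested set through the groups where it was higher.

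Against PBS, the Atp7b levels lay lowest with ATEV and NTEV. After DNase-treated ATEV it averaged 1.44 ± 0.379 CPM, against 2.34 ± 0.822 CPM after PBS, a log2 difference of -0.69 ± 0.36 with a 95% interval of -1.46 to 0.08. With NTEV the mean was 0.200 ± 0.136 CPM, against 2.34 ± 0.822 CPM after PBS (log2 difference -3.57 ± 0.45, 11.9-fold lower), and without NTEV replicate 1 the value was -3.47. With ATEV the mean was 0.224 ± 0.0377 CPM, against 2.34 ± 0.822 CPM after PBS, a log2 difference of -3.36 ± 0.45. ATEV and NTEV stood 0.21 ± 0.58 apart on the log2 scale, and with 14 counts in each group the 95% interval of -1.03 to 1.45 leaves room for more than a 2-fold difference in either direction. These comparisons share libraries and are not independent of each other.

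Atp7a encodes the related pump that serves most tissues, and its transcript spanned 2.08-fold over the 12 libraries, against 39.9-fold for Atp7b. It stood at 54.9, 71.7 and 52.7 CPM after DNase-treated ATEV, 61.9, 99.2 and 65.5 after ATEV, 47.6, 96.7 and 67.1 after NTEV, and 48.0, 48.2 and 74.2 after PBS. Ranges of all 4 groups overlapped. The highest library was replicate 2 in each vesicle group and replicate 3 in PBS. In edgeR's quasi-likelihood test, with Benjamini-Hochberg adjustment over all 13261 genes, DNase-treated ATEV differed from PBS by 0.07 ± 0.26 on the log2 scale (edgeR adjusted p = 0.956), NTEV from PBS by 0.31 ± 0.26 (0.541), DNase-treated ATEV from ATEV by -0.34 ± 0.26 (0.559) and ATEV from NTEV by 0.10 ± 0.26 (0.894). The log2 difference of ATEV from PBS was 0.41 ± 0.26. The ratio of Atp7a to Atp7b counts was 29.3 to 68.9 in DNase-treated ATEV libraries, 247 to 519 with ATEV, 193 to 1208 with NTEV and 15.1 to 47.8 with PBS.

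The copper importer Slc31a1 varied least of the 8. Its levels were 131, 124 and 119 CPM after DNase-treated ATEV, 139, 137 and 125 after ATEV, 147, 164 and 141 after NTEV, and 125, 120 and 119 after PBS. The NTEV libraries lay above all others, at a mean of 150.5 ± 11.8 CPM, against 121 ± 3.52 CPM after PBS (log2 fold change 0.31 ± 0.10), without passing the edgeR test (adjusted p = 0.135); DESeq2 did call it (adjusted p = 0.0373). DNase-treated ATEV differed from PBS by 0.04 ± 0.10 (adjusted p = 0.935, 95% interval -0.19 to 0.26) and from ATEV by -0.10 ± 0.10 (adjusted p = 0.663) in the edgeR fit, and ATEV lay 0.17 below NTEV on the log2 scale (-0.17 ± 0.10, adjusted p = 0.495). The log2 difference of ATEV from PBS was 0.14 ± 0.10.

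Slc39a4 encodes ZIP4, best known as the intestinal zinc importer mutated in acrodermatitis enteropathica in humans. It had 42, 47 and 70 counts after DNase-treated ATEV, 84, 64 and 60 after ATEV, 230, 274 and 159 after NTEV, and 54, 39 and 31 after PBS. The corresponding CPM were 2.02, 2.23 and 2.92 after DNase-treated ATEV, 3.62, 3.06 and 3.18 after ATEV, 7.94, 10.97 and 7.91 after NTEV, and 2.16, 1.83 and 1.34 after PBS. Every NTEV library lay above every other library, and the ATEV libraries lay above the DNase-treated ATEV and PBS libraries, which overlapped.

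With NTEV, Slc39a4 rose to 8.94 ± 1.76 CPM, against 1.77 ± 0.414 CPM after PBS (SD, n = 3), 5.02-fold or 2.33 ± 0.25 on the log2 scale (edgeR adjusted p = 0.00189, higher in 3 of 3 libraries). Leaving out any 1 of these 6 libraries kept the call (adjusted p from 0.00117 to 0.0102; 2.42 without NTEV replicate 1). Between the vesicle types, ATEV-treated cells held 3.28 ± 0.293 CPM and NTEV-treated cells 8.94 ± 1.76 CPM, a log2 fold change of -1.44 ± 0.23 (edgeR adjusted p = 0.00697), and the call again held with any 1 library left out (adjusted p up to 0.0461; -1.52 without NTEV replicate 1). ATEV and NTEV were given at different doses, which cannot be told apart from the source of the vesicles. DNase-treated ATEV gave 2.39 ± 0.471 CPM, against 3.28 ± 0.293 CPM with ATEV (-0.46 ± 0.24, edgeR adjusted p = 0.388) and 1.77 ± 0.414 CPM with PBS (0.43 ± 0.25, adjusted p = 0.826). The log2 difference of ATEV from PBS was 0.89 ± 0.25, a description only. In the order of levels NTEV stood highest, followed by ATEV, DNase-treated ATEV and PBS. Of these neighbours, NTEV and ATEV passed the threshold of the edgeR fit, while DNase-treated ATEV did not pass it against ATEV or PBS. For ATEV against PBS the values are given as a description. Slc39a4 was selected with results of these libraries known, and each comparison here shares the ATEV or PBS libraries with that choice. The p-values and calls in this paragraph are therefore not independent of the selection.

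Slc39a8 encodes ZIP8, an importer of zinc and manganese that is inducible in activated macrophages and T cells. Its levels were 4.72, 4.02 and 3.92 CPM after DNase-treated ATEV, 4.003, 3.15 and 2.81 after ATEV, 3.55, 2.96 and 3.03 after NTEV, and 2.92, 2.72 and 2.15 after PBS. All DNase-treated ATEV and all NTEV libraries lay above the PBS libraries, and the ATEV libraries overlapped each of the other groups. DNase-treated ATEV differed from PBS by 0.70 ± 0.22 on the log2 scale with an unadjusted p of 0.00653, which did not survive adjustment over all genes (edgeR adjusted p = 0.701). The NTEV difference from PBS was 0.29 ± 0.22 (adjusted p = 0.477) and that of ATEV from PBS 0.36 ± 0.22. DNase-treated ATEV and ATEV were 0.34 ± 0.21 apart (adjusted p = 0.460), and ATEV and NTEV 0.06 ± 0.22 (adjusted p = 0.925), in the same edgeR fit.

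Slc30a1 encodes ZnT1, which exports zinc across the plasma membrane. It stood at 32.4, 29.4 and 29.0 CPM after DNase-treated ATEV, 31.5, 28.2 and 23.2 after ATEV, 24.4, 30.6 and 21.4 after NTEV, and 34.5, 30.8 and 27.1 after PBS. The groups overlapped throughout. Fitted log2 differences were -0.03 ± 0.16 for DNase-treated ATEV against PBS (edgeR adjusted p = 0.972), -0.27 ± 0.16 for NTEV against PBS (0.368), 0.13 ± 0.16 for DNase-treated ATEV against ATEV (0.729) and 0.12 ± 0.16 for ATEV against NTEV (0.777). ATEV lay -0.16 ± 0.16 from PBS.

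The metallothioneins store zinc and copper, and neither was called in a tested comparison. Mt1 had 500.0, 327 and 368 CPM after DNase-treated ATEV, 237, 308 and 360.3 after ATEV, 503, 171 and 379 after NTEV, and 519, 495 and 421 after PBS. All ATEV libraries lay below the PBS libraries, a log2 difference of -0.66 ± 0.30 that is a description, whereas the other vesicle groups overlapped PBS. NTEV libraries were the most spread, with a coefficient of variation of 47.9%, against 10.6% in PBS. In the edgeR fit DNase-treated ATEV differed from PBS by -0.26 ± 0.30 (adjusted p = 0.857), NTEV from PBS by -0.45 ± 0.30 (0.433), DNase-treated ATEV from ATEV by 0.40 ± 0.30 (0.546) and ATEV from NTEV by -0.22 ± 0.30 (0.782).

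Mt2 was steadier. It had 429, 372 and 506 CPM after DNase-treated ATEV, 407, 358 and 339 after ATEV, 406, 280.3 and 388 after NTEV, and 422, 423 and 389 after PBS. All 4 groups overlapped, and NTEV replicate 2 was the lowest library. DNase-treated ATEV differed from PBS by 0.08 ± 0.16 (edgeR adjusted p = 0.914, 95% interval -0.26 to 0.43) and NTEV from PBS by -0.20 ± 0.16 (adjusted p = 0.514), DNase-treated ATEV from ATEV by 0.24 ± 0.16 (0.478) and ATEV from NTEV by 0.04 ± 0.16 (0.936). ATEV stood -0.16 ± 0.16 from PBS. The share of Mt1 in the summed counts of the pair was 42.1 to 53.8% with DNase-treated ATEV, 36.8 to 51.5% with ATEV, 37.8 to 55.4% with NTEV and 52.0 to 55.2% with PBS. Its lowest values came from ATEV replicate 1 and NTEV replicate 2. Over the 12 libraries the log2 levels of Mt1 and Mt2 had a Pearson r of 0.65, given as a description since the points share libraries and groups.

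**Figure D4:**
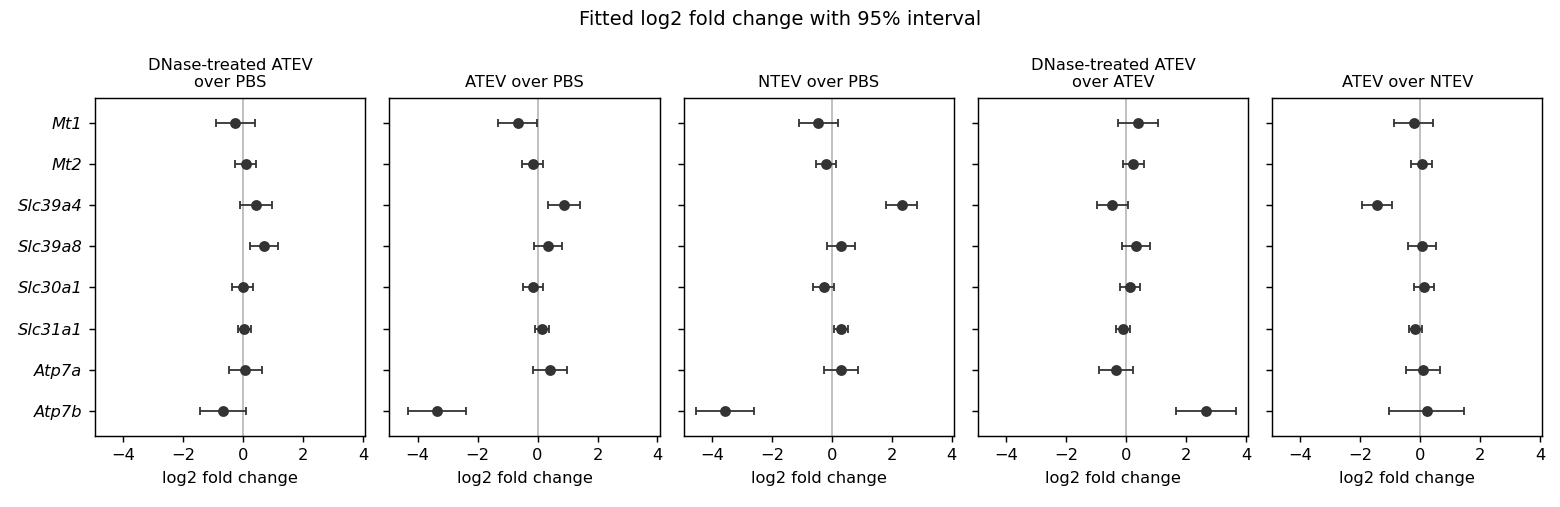
Fitted log2 fold change of each zinc and copper gene with its 95% interval in 5 comparisons, the first group named over the second. Atp7b lies at -3.57 and Slc39a4 at 2.33 for NTEV over PBS, and Atp7b at 2.67 for DNase-treated ATEV over ATEV. Intervals of Atp7b and of ATEV over PBS are a description and no test, since the genes were chosen on results of these libraries.

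Across the 8 genes, calls were few, and those of Atp7b are counted here beside the share over all genes with nothing read from them. For DNase-treated ATEV against ATEV, 1 of the 8 was called higher (Atp7b) and 0 lower, where 0.143% of all tested genes were called higher and 1.32% lower, 1.46% in either direction. With NTEV against PBS, 1 gene was higher (Slc39a4) and 1 lower (Atp7b), where 1.70% of tested genes were called higher and 0.611% lower. For ATEV against NTEV, 1 gene was lower (Slc39a4) and none higher, against 0.0603% of tested genes called lower and 0.875% higher. With DNase-treated ATEV against PBS edgeR called none of the 8, as of all genes (0%), with 1 of the 8 and 791 of all 13261 genes at an unadjusted p under 0.05; DESeq2 called 0 of the 8 and 38 genes in all. For ATEV against PBS the fit called 1 of the 8 (Atp7b), where 4.74% of genes were called, 3.32% higher and 1.42% lower, and nothing is read from that count. The median log2 fold change of the 8 genes was 0.06 for DNase-treated ATEV, -0.01 for ATEV and 0.05 for NTEV, each against PBS, beside 0.00, 0.03 and 0.00 over all tested genes. Groups did not overlap for 1 of the 8 genes between DNase-treated ATEV and PBS (13.4% of all tested genes), 3 between ATEV and PBS (33.1%), 4 between NTEV and PBS (23.8%), 2 between DNase-treated ATEV and ATEV (20.2%) and 2 between ATEV and NTEV (15.8%).

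A further 54 genes of zinc and copper handling were listed, of which 38 could be tested. The list was made with earlier results of these data known, so tests of its genes are not independent of those results. Among the 38 genes, 2 were called with ATEV against PBS (1 higher and 1 lower). With NTEV against PBS 2 were called (both higher), and none were in the other comparisons. Shares of all tested genes called were 4.74% for ATEV and 2.31% for NTEV against PBS, 0% for DNase-treated ATEV against PBS, 1.46% for DNase-treated ATEV against ATEV and 0.935% for ATEV against NTEV. At an unadjusted p under 0.05 in edgeR, DNase-treated ATEV against PBS had 1 of the 38 (2.63%, beside 5.96% of all tested genes), DNase-treated ATEV against ATEV 6 (15.8%, beside 15.2%) and ATEV against NTEV 5 (13.2%, beside 13.4%). DESeq2 called none for DNase-treated ATEV against PBS, 1 for DNase-treated ATEV against ATEV (Slc31a2) and 1 for ATEV against NTEV (Slc11a2). Their median log2 fold change was 0.09 with ATEV and 0.10 with NTEV against PBS, beside 0.03 and 0.00 over all tested genes.

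Slc31a2 encodes CTR2, a relative of the copper importer that lies in endosomes and lysosomes and affects how CTR1 is processed. It had 21.0, 38.1 and 34.7 CPM after DNase-treated ATEV, 54.8, 55.6 and 64.5 after ATEV, 42.2, 78.2 and 50.8 after NTEV, and 16.8, 22.6 and 28.2 after PBS. All ATEV and NTEV libraries lay above the DNase-treated ATEV and PBS libraries, which overlapped. It rose with ATEV (log2 fold change 1.37 ± 0.26, edgeR adjusted p = 0.0112) and with NTEV (1.34 ± 0.26, adjusted p = 0.0211) against PBS. The ATEV call was lost without PBS replicate 1 or 2 (adjusted p up to 0.0569), and the NTEV call without NTEV replicate 2 or 3 or any PBS replicate (adjusted p up to 0.0873), while without NTEV replicate 1 it was 1.53 (adjusted p = 0.00551). DNase-treated ATEV lay -0.90 ± 0.26 from ATEV (edgeR adjusted p = 0.127), a difference that passed under DESeq2 (adjusted p = 0.0292) and without the filter on low counts (adjusted p = 0.00440), in a range that reached 0.331 with 1 library left out.

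Slc11a2 encodes DMT1, a proton-coupled carrier of iron and other divalent metals. It had 53.1, 43.7 and 49.0 CPM after DNase-treated ATEV, 60.2, 57.3 and 59.4 after ATEV, 79.95, 96.0 and 74.9 after NTEV, and 59.7, 50.2 and 43.4 after PBS. The NTEV libraries lay above all others. The rise with NTEV against PBS was 0.71 ± 0.14 on the log2 scale (edgeR adjusted p = 0.0211) and was lost without NTEV replicate 2 or 3 or PBS replicate 2 or 3 (adjusted p up to 0.131), while without NTEV replicate 1 it was 0.76 (adjusted p = 0.0112). ATEV lay -0.50 ± 0.14 from NTEV without overlap, which edgeR did not call (adjusted p = 0.144) and DESeq2 did (adjusted p = 0.0471, with a range up to 0.381 over the alternatives). Slc30a5 encodes ZnT5, which brings zinc into the early secretory pathway. It fell to 97.1 ± 1.26 CPM with ATEV, against 147 ± 7.38 CPM with PBS (-0.59 ± 0.13, edgeR adjusted p = 0.0238), and leaving out ATEV replicate 2 or 3 or any PBS replicate ended the call (adjusted p up to 0.0947). With NTEV it stood at 103 ± 13.2 CPM, also below every PBS library (-0.50 ± 0.13, edgeR adjusted p = 0.0627), and this passed under DESeq2 (adjusted p = 0.0119) and without NTEV replicate 1 (adjusted p = 0.0185), in a range up to 0.256 over the alternatives. ATEV and NTEV differed by -0.09 ± 0.13 (edgeR adjusted p = 0.786).

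**Figure D5:**
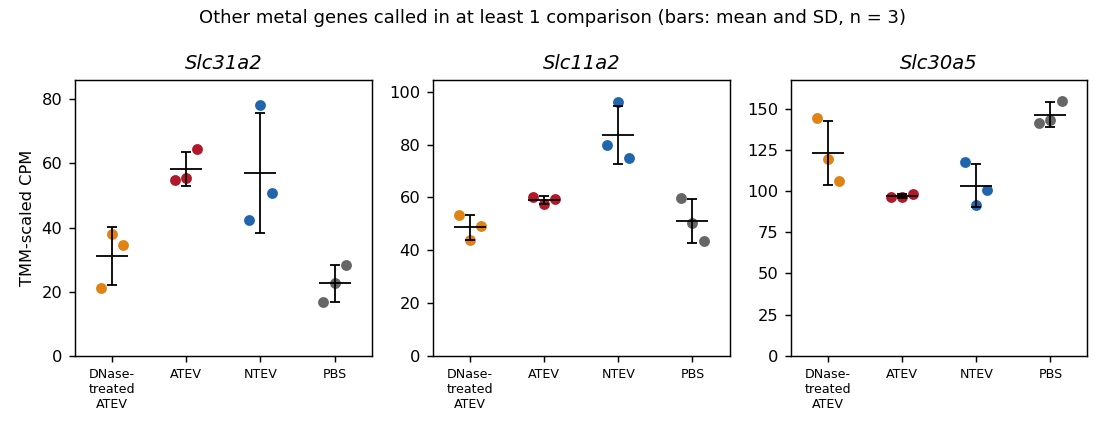
TMM-scaled CPM per library of Slc31a2, Slc11a2 and Slc30a5, with the mean and SD of each group of 3. Slc31a2 is highest in ATEV and NTEV libraries, Slc11a2 in NTEV libraries, and Slc30a5 is lowest in ATEV and NTEV libraries apart from NTEV replicate 1.

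The remaining lists held no gene called in the main edgeR fit, though 2 genes lay near the threshold for ATEV against PBS. These were the copper enzyme gene Cp (log2 fold change 1.82 ± 0.49, edgeR adjusted p = 0.0507) and Slc39a6 (-0.45 ± 0.13, edgeR adjusted p = 0.0602). None of 10 further ZIP importers, 6 enzymes that use copper or zinc and the tested metal sensor passed the edgeR test in any comparison. That sensor, Mtf1, which drives metallothionein transcription, stood at 33.5 ± 2.14 CPM after DNase-treated ATEV, 37.5 ± 2.11 after ATEV, 37.3 ± 2.03 after NTEV and 34.8 ± 3.59 after PBS (SD, n = 3). Mt3, Mt4 and Gpr39 had at most 2 counts each over all 12 libraries.

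For each of the 8 genes, the 3 genes with the most similar pattern were taken by Pearson correlation of log2 CPM over the 12 libraries, among 9489 or 9490 tested genes with a mean of at least 5 CPM. These r values describe libraries that share groups, and carry no test. Atp7b was most like Pdk1, a kinase of pyruvate dehydrogenase (r = 0.93), the collagen lysyl hydroxylase Plod2 (0.93) and the prolyl hydroxylase Egln1 (0.92). Pdk1, the closest, averaged 220 CPM after DNase-treated ATEV, 150.4 after ATEV, 140.4 after NTEV and 243 after PBS. Slc39a4 was most like Ebi3, a subunit of interleukin-27 and interleukin-35 (r = 0.97), the iron-sequestering protein gene Lcn2 (0.96) and Irak3, a brake on Toll-like receptor signalling (0.94). Lcn2 averaged 1.27 CPM after DNase-treated ATEV, 3.19 after ATEV, 18.9 after NTEV and 0.692 after PBS. Mt1 was most like the glycolytic enzymes Tpi1, Pgam1 and Ldha (r = 0.99 each), of which Ldha averaged 2511 CPM after DNase-treated ATEV, 1973 after ATEV, 2033 after NTEV and 3232 after PBS. Slc31a1 was most like Lrrc8d (0.92), Irak3 (0.91) and Slc11a2 (0.91). For Atp7a these were Kif13b, Dnajb14 and Tmem87b (0.94 to 0.97), and for Mt2 Brd9, Tcf25 and Ing2 (0.88 to 0.92). Slc39a8 was most like Arhgap27, Lrp10 and Nedd9 (0.82 to 0.89), and Slc30a1 like Tmtc3, Usp34 and Ppp2r3a (0.84 to 0.85).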

How the data were processed

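Poly(A) RNA of DC2.4 cells was sequenced from stranded libraries, per the labels' protocols. The authors deposited whole-number counts per gene with 1 column per library and no visible normalization. The build mm9 and the tools Cufflinks 2.1.1, TopHat, TopHat2 2.0.11 and bcl2fastq 2.19 are listed, without roles, per the submitters' processing notes. Which read counter, annotation and strand setting were used is not given in the sources used here. Overlapping and antisense genes therefore cannot be told apart. Symbols from GENCODE M21 matched 42250 of 42687 identifiers. Exon lengths come from that annotation and promoter windows from RefSeq, both of a build other than mm9.

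Genes were kept by filterByExpr (minimum count 10, minimum total 15), libraries scaled by TMM, and a quasi-likelihood model with 1 mean per group fitted to all 12 libraries in edgeR 4.0.16 (R 4.3.3). Two-sided tests were adjusted by Benjamini-Hochberg over 13261 genes within a comparison and called at an adjusted p under 0.05. Standard errors derive from the F statistic. Correlations used log2(CPM + 0.5). DESeq2 1.42.0 was an alternative. The steps were tested on simulated counts. Replicates differed by more than counting noise (chi-square per degree of freedom 14.3 to 128).

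The 8 genes, the list of 54 other metal genes and the comparisons were chosen with earlier results of these data known. Named from the list were genes called in any comparison, and for each of the 8 genes the 3 most similar patterns. Mtf1, Cp, Slc39a6 and the untested genes Mt3, Mt4 and Gpr39 were added after their values were seen.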

Additional observations from a re-analysis of the deposited data

How the results depend on the processing

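Of the 8 genes and the 3 other called genes, every call and direction was the same with RLE size factors. With these, 3 other metal genes were called for ATEV against PBS, where the main fit called 2. Fitting only the groups compared ended the calls of Atp7b, Slc31a2 and Slc11a2 for NTEV against PBS and left 1 of the 8 genes, 0 of the other metal genes and 19 of all genes called there; for ATEV against PBS it gave 2 of the 8 and 1244 of all genes, for DNase-treated ATEV against ATEV 1 other metal gene and 178 of all genes, and for ATEV against NTEV 82 genes, with Atp7b below the filter. Without the filter, ATEV against PBS gave 2 of the 8, 6 other metal genes and 1317 of all genes, NTEV against PBS 876, DNase-treated ATEV against PBS 47, DNase-treated ATEV against ATEV 3 other metal genes and 394 in all, and ATEV against NTEV 242. DESeq2 called 2 of the 8, 7 other metal genes and 1538 of all genes for ATEV against PBS, 861 for NTEV against PBS, 38 for DNase-treated ATEV against PBS, 1 other metal gene and 495 in all for DNase-treated ATEV against ATEV, and 1 and 373 for ATEV against NTEV. The cause was not tested.

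Same-numbered libraries had correlated deviations of -0.43 to 0.58, not above 0.1 in every pair, so the main fit did not pair them. For replicate 1 the correlation was 0.58 between NTEV and PBS and 0.50 between DNase-treated ATEV and PBS. It was -0.43 between DNase-treated ATEV and ATEV, and -0.35 between ATEV and NTEV. Whether libraries of the same number shared a batch was not tested. A replicate block changed no call of the 8 genes; it called Slc31a2 for DNase-treated ATEV against ATEV (adjusted p = 0.0307) and gave 5 other metal genes and 1440 of all genes for ATEV against PBS, 1 other metal gene and 261 of all genes for DNase-treated ATEV against ATEV, and 1 gene for DNase-treated ATEV against PBS.

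Leaving out 1 library gave 0 (without ATEV replicate 2) to 1 of the 8 genes for DNase-treated ATEV against ATEV, 1 for ATEV against PBS, 2 for NTEV against PBS, 1 for ATEV against NTEV and 0 for DNase-treated ATEV against PBS. The call for ATEV against NTEV was of Slc39a4, those for NTEV against PBS of Slc39a4 and Atp7b, and the others of Atp7b. Calls of Atp7b, here and under the settings above, are counted with nothing read from them. Other metal genes ran from 0 to 5 for ATEV against PBS, 0 to 4 for NTEV against PBS and 0 to 1 for DNase-treated ATEV against ATEV. All genes called ran from 169 (without PBS replicate 2) to 849 (without ATEV replicate 1) for ATEV against PBS, from 34 (without PBS replicate 3) to 1685 (without NTEV replicate 1) for NTEV against PBS, from 78 to 522 for DNase-treated ATEV against ATEV, from 70 to 302 for ATEV against NTEV, and from 0 to 8 for DNase-treated ATEV against PBS. Every omission moved the count by over 1.5 times for NTEV against PBS, and every one but that of ATEV replicate 1 for ATEV against PBS. Signs turned in 21 of these fits, always for a difference that was not called. The log2 fold changes for DNase-treated ATEV against PBS ran from -0.00764 to 0.0764 for Slc31a1, -0.0717 to 0.30 for Atp7a, -0.19 to 0.0648 for Slc11a2, -0.0370 to 0.19 for Mt2 and -0.12 to 0.0740 for Slc30a1. The log2 fold changes for ATEV against NTEV ran from -0.0984 to 0.14 for Mt2, -0.0936 to 0.17 for Slc39a8, -0.15 to 0.41 for Atp7a, -0.15 to 0.34 for Slc31a2, -0.54 to 0.13 for Mt1, -0.16 to 0.0108 for Slc30a5 and -0.15 to 0.75 for Atp7b. The log2 fold changes for NTEV against PBS ran from -0.00023 to 0.54 for Atp7a. Atp7b had 14 counts in each of the ATEV and NTEV groups, which limits the precision of any difference between them.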
